A study of Rattus norvegicus with 75 samples.

Results

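The comparison described here set 2 libraries of rat cortical collecting duct (CCD) after 12 h on lithium food against 3 CCD libraries after 12 h on control food. These 5 libraries, chosen by their labels alone, are part of 75 libraries in the series. The collecting duct is the last tubule segment that adjusts urine, with principal cells that take up water through aquaporin channels and intercalated cells that handle acid and base. The donors were male Sprague-Dawley rats of 120 to 160 g, housed singly under a light-dark cycle, and the segment was isolated by microdissection. The lithium diet held 40 mM lithium chloride for each kg, and control rats ate the same food without it. Lithium was given to whole animals, so direct and indirect actions on the duct cannot be told apart. The labels do not say how many rats stand behind a library, and the p-values below reflect variation among libraries, some of which may be technical. The same design was used at 24 and 36 h, with 3 control and 3 lithium libraries each, and at 72 h, with 17 and 19.

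Lithium is a mood stabiliser that enters principal cells through the epithelial sodium channel and inhibits glycogen synthase kinase 3 and inositol phosphatases. Its best known renal effect is nephrogenic diabetes insipidus, in which the duct stops answering vasopressin, loses the water channel Aqp2 and fails to concentrate urine. Collecting duct cells are also known to re-enter the cell cycle under lithium. A cycling cell first makes the proteins that license and copy DNA, under E2F transcription factors, and later the mitotic kinases and spindle proteins, whose promoters often carry the cell cycle genes homology region (CHR).

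In these data the replication genes were already higher at 12 h, and most mitotic genes were not. To show the promoter letters that mark the 2 groups, the 150 bases around the annotated start of 6 genes are printed from RefSeq (build GRCr8), 125 before it and 25 from it onward, 5′ to 3′ on the gene's strand. The first 4 encode or load parts of the replicative helicase. Capitals mark an E2F-type match, searched on both strands as TTTCCCGC, TTTCGCGC, TTTGCCGC or TTTGGCGC (with the reverse complements GCGGGAAA, GCGCGAAA, GCGGCAAA and GCGCCAAA).
Mcm3, chr9:30733722-30733871, strand minus: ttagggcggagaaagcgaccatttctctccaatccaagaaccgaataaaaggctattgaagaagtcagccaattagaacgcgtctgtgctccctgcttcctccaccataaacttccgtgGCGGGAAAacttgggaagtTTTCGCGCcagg
Mcm5, chr19:13488688-13488837, strand plus: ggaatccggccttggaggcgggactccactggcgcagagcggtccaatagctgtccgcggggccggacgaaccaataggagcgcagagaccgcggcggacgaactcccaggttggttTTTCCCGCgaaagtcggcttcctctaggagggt
Gins1, chr3:160184795-160184944, strand plus: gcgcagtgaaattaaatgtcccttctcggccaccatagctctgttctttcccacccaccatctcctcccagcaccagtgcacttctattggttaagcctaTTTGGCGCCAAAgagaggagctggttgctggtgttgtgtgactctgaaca
Cdt1, chr19:67529124-67529273, strand plus: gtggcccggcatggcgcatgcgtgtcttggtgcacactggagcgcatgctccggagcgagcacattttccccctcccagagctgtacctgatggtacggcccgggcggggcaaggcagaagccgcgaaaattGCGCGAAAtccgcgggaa
The other 2 encode the mitotic kinase Cdk1 and the spindle midzone protein Prc1, and capitals mark TTTGAA, the CHR core (TTCAAA on the other strand).
Cdk1, chr20:19265168-19265317, strand plus: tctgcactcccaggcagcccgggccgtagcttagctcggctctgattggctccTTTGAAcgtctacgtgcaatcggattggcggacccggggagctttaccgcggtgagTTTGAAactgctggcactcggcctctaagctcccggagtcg
Prc1, chr1:143659356-143659505, strand plus: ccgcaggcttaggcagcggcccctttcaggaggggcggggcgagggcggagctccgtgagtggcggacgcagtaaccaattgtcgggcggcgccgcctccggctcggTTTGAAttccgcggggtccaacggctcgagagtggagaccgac
The 2 matches in Gins1 overlap, since the site reads alike on both strands. An E2F-type match lay in 2.25% of all 27457 RefSeq promoter windows of 250 bases before to 50 after a start, in 18 of the 36 windows found for G1/S and DNA replication genes (50%) and in 2 of the 38 found for G2/M and mitosis genes (5.26%). The CHR core lay in 18.1% of all windows, in 3 of the 36 (8.33%) and in 27 of the 38 (71.1%). Such a match describes the letters and does not show that a factor was bound.

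Expression is given as deposited, in TPM, each transcript's length-corrected share of a library on a fixed total. A gene was called when limma's moderated test on log2(TPM + 1) gave a Benjamini-Hochberg adjusted p under 0.05. All log2 differences below are on that scale, where changes of genes at low levels appear too small. At 12 h, 1411 of 12016 tested genes were called (11.7%), of which 957 were higher (7.96%) and 454 lower (3.78%) with lithium. Of the called genes, 326 differed at least 2-fold, 222 higher and 104 lower. Without lithium library 2 the counts were 500 higher and 518 lower, and without library 1 they were 1025 and 291. The median over all tested genes was 0.06 on the log2 scale. Under median-of-ratios scaling 814 genes were higher and 703 lower, and a fit of all 8 CCD groups, which takes its spread mostly from 72 h, called 280.

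Untreated groups also differed among themselves, and this touches every result below. Control libraries at 36 h differed from control libraries at 12 h, a day apart and without lithium, in 1304 of 11795 genes (11.1%). For this reason gene groups below are also set against 2 wider sets of controls. The first is the mean of the controls at 12 and 36 h, where 1420 genes were called (11.8%) and 986 of the 1411 were called in the same direction. In the second, both lithium libraries had to lie outside every control, which held for 1543 genes (12.8%) against the 9 controls at 12, 24 and 36 h and for 405 (3.37%) against all 26 CCD controls. Of the called genes, 256 lay above and 39 below all 26.

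The libraries of each early group also shared the states of genes that are either high or low, such as RT1-CE16, a class I histocompatibility gene. RT1-CE16 was at 7.67 to 10.39 TPM in the controls at 12 h and at 12.86 to 13.97 in the lithium libraries, and at 178.05 to 208.16 in the controls at 36 h. The control and lithium groups of 12 h were in the same state of this gene and of Mrps10 and Pfdn6, which does not show that they matched in others. H3f3c was at 4.76 to 7.15 TPM in controls at 12 h and at 30.13 and 33.95 with lithium. Its lithium effect was 2.32 at 12 h and -2.14 at 24 h, and that of Znf768 was -1.73 and 1.69. Whether such genes differed by state or by lithium was not tested. CCD libraries with the same states of RT1-CE16, Mrps10 and Pfdn6 were averaged into 14 sets. In a fit of these sets each group of 12 h became 1 value and the spread came from the sets at 72 h. There 3 genes were called (0.025%), all lower: Apcdd1, AC105648.5 and AC096455.2. In that fit, chosen after seeing the data, 849 genes had an unadjusted p under 0.05, and of the genes named below as called at 12 h only Apcdd1 was called.

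Lithium library 1 listed 17 short RNA genes above 0, and the other 4 libraries at 12 h listed 4 to 8. Between 11564 and 11782 genes reached 1 TPM in a control and 11668 and 11767 in a lithium library, and mitochondrial transcripts took 9.57 to 10.9% and 9.67 and 8.97% of TPM. Markers of the segment were high in all 5, with principal cell markers summing to 22120 to 24190 TPM in controls and 16680 to 19370 with lithium, and 24 intercalated cell markers to 20130 to 21110 and 19070 to 20000. Sums for other cell types were low: 21 proximal tubule markers gave 197.6 to 839 TPM in controls and 316.2 to 376.7 with lithium, and 11 endothelial markers 51.24 to 162.1 and 56.18 to 63.01. The 19 leukocyte markers summed to 249.7 to 498.5 and 129.7 to 248 TPM, so both lithium libraries lay below the 3 controls.

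The genes of the G1/S transition and DNA replication rose at 12 h. Of 45 tested of 48 listed, 37 were called higher and none lower, with a median log2 difference of 1.01 against 0.06 over all genes. The limma fit gave no member lower at an unadjusted p under 0.05 either, and 41 higher. Against controls of 12 and 36 h together 40 were higher, 39 lay above the 9 early controls, and 35 lay above all 26 CCD controls. Between the untreated controls at 36 and 12 h none was higher and 9 were lower. Lithium library 2 was above library 1 in 42 of the 45. Without library 2, 31 were called, and on means of sets none was called (smallest adjusted p 0.0699, with 35 members higher at an unadjusted p under 0.05).

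All 6 subunits of the MCM helicase, the ring that unwinds DNA ahead of the polymerases, rose, with differences between 1.10 and 1.97. Mcm3 was at 17.99, 16.78 and 17.45 TPM in the controls and at 59.71 and 84.29 in the lithium libraries. Both lithium values were more than 3 times any of the 26 CCD controls, whose highest was 18.36, and the difference was 1.97 (SE 0.197, adjusted p = 9.66e-06). Mcm5, whose promoter is printed above with that of Mcm3, went from 17.5, 17.04 and 21.67 to 61.28 and 93.09 TPM, a difference of 1.96. Mcm2 and Mcm7 started higher, at 48.9 to 51.7 and 44.8 to 52 TPM, and reached 99.4 and 147 and 87.6 and 123. In each of these subunits the groups did not overlap.

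The 5 proteins that place or restrain the helicase at origins were called as well. Cdc6, which loads the helicase with Cdt1, went from 3.69, 4.42 and 5.06 to 17.21 and 23.57 TPM, a difference of 1.98. Cdt1 went from 5.86, 5.38 and 5.18 to 20.16 and 28.11 TPM, with 1.94. Gmnn, the inhibitor that keeps Cdt1 from loading a helicase again, rose less, by 0.75, and the origin recognition subunits Orc1 and Orc6 rose by 0.95 and 1.08. All 5 lay above the 26 controls in both lithium libraries.

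Of the genes that activate the helicase, Cdc45, Gins1, Gins2 and Gins4 were called. Gins1 was at 6.2, 5.3 and 6.77 TPM in controls and at 17.63 and 28.45 with lithium, a difference of 1.73. Mcm10, with 0.52, and Gins3, with 0.37, were not called (adjusted p = 0.13 and 0.167). Mcm10 was near the low end of detection, with 1.13 to 1.92 TPM in controls.

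The genes that copy and join the strands followed. Of the polymerase and primase genes, Prim1, Pold1 and Pole were called, with 1.28, 1.28 and 1.01, and Pola1 (0.79) and Prim2 (0.65) were not. All 8 genes of the sliding clamp, its loaders and strand joining were called. Among them Dscc1, a subunit of a clamp loader, showed the largest difference of the whole list, from 4.32, 4.04 and 5.45 to 21.78 and 24.26 TPM (2.11). Pcna, the clamp itself, went from 151.47, 134.14 and 142.45 to 240.94 and 299.71 TPM, a difference of 0.91 (SE 0.107, adjusted p = 3.82e-05). Pcna was the most abundant gene of the list and its groups did not overlap.

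Nucleotide supply was divided. Of 5 tested genes 3 rose, among them Tk1, the thymidine salvage kinase, by 0.99, and Rrm1, the large subunit of ribonucleotide reductase, by 0.65. Rrm2, the small subunit of the same enzyme, was at 17.67, 18.67 and 23.28 TPM in controls and at 14.05 and 20.76 with lithium, with -0.20 (adjusted p = 0.572). Tyms, thymidylate synthase, gave 0.01. These 2 genes were not called at 12 h, while Rrm2 differed by 1.74 at 24 h and 3.66 at 36 h.

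Both cyclins E rose, Ccne2 by 1.17 and Ccne1 by 0.76. So did the chromatin assembly subunits Chaf1a and Chaf1b, by 1.21 and 1.10, and Uhrf1, which couples DNA methylation to replication, by 1.14. Upstream of them, Ccnd1, the D-type cyclin that answers growth signals, went from 18.3, 21.2 and 30.7 to 56.9 and 99.5 TPM (1.68), although controls at other times reached 76.46. Its partner Cdk4 rose by 0.56 and Cdk2, the partner of cyclin E, by 0.45, both above all 26 controls. These were the 3 called members of 16 tested D cyclins, kinases and inhibitors (18.8%, against 11.7% over all genes). Against controls of 12 and 36 h 5 of the 16 were higher.

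Outside the list, the 15 largest rises held further genes of replicating cells. Tonsl, which helps repair stalled replication forks, went from 1.39, 1.74 and 2.2 to 8.11 and 14.22 TPM (2.10). Cdca7, a chromatin protein of cycling cells, went from 2.94, 2.57 and 2.79 to 12.41 and 19.66 TPM (2.14). Both lay above all 26 controls, whose highest values were 3.14 and 2.94.

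**Figure D1:**
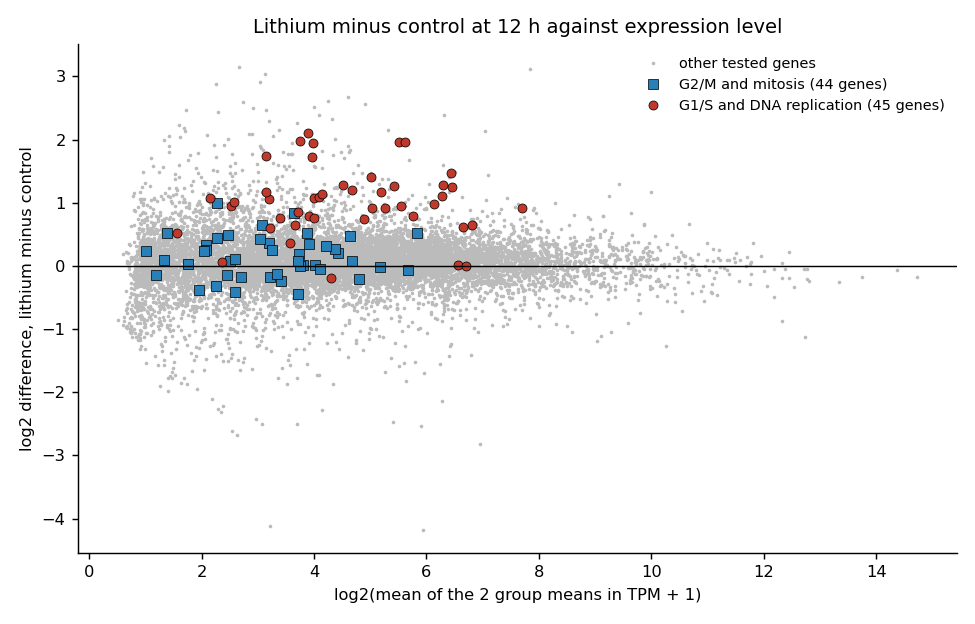
Log2 difference of lithium minus control at 12 h (y axis) against the log2 of the mean level in TPM + 1 (x axis) for each tested gene in grey, with the 45 G1/S and DNA replication genes as red circles and the 44 G2/M and mitosis genes as blue squares. Most red circles lie near or above 1 (median 1.01), and the blue squares lie around 0 (median 0.10).

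Most mitotic genes were not called at 12 h. Of 44 tested genes of G2/M and mitosis, 2 were called higher, the kinetochore genes Cenpk (1.00) and Nuf2 (0.83), and none lower. The median was 0.10, 5 were higher and none lower at an unadjusted p under 0.05 in limma, and 8 were called higher against controls of 12 and 36 h. Cdk1, the kinase that starts mitosis, was at 41.62, 39.98 and 54.15 TPM in controls and at 52.32 and 80.57 with lithium, a difference of 0.52 that was not called (adjusted p = 0.122). Prc1 was at 24.61, 24.99 and 35.73 and at 17.69 and 32.71 TPM, with -0.21. The proliferation marker Mki67 was at 4.08, 2.9 and 6.33 and at 2.77 and 7.21 TPM. In all 3 genes the lithium values overlapped the controls, and library 2 was above library 1, as it was in 43 of the 44.

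**Figure D2:**
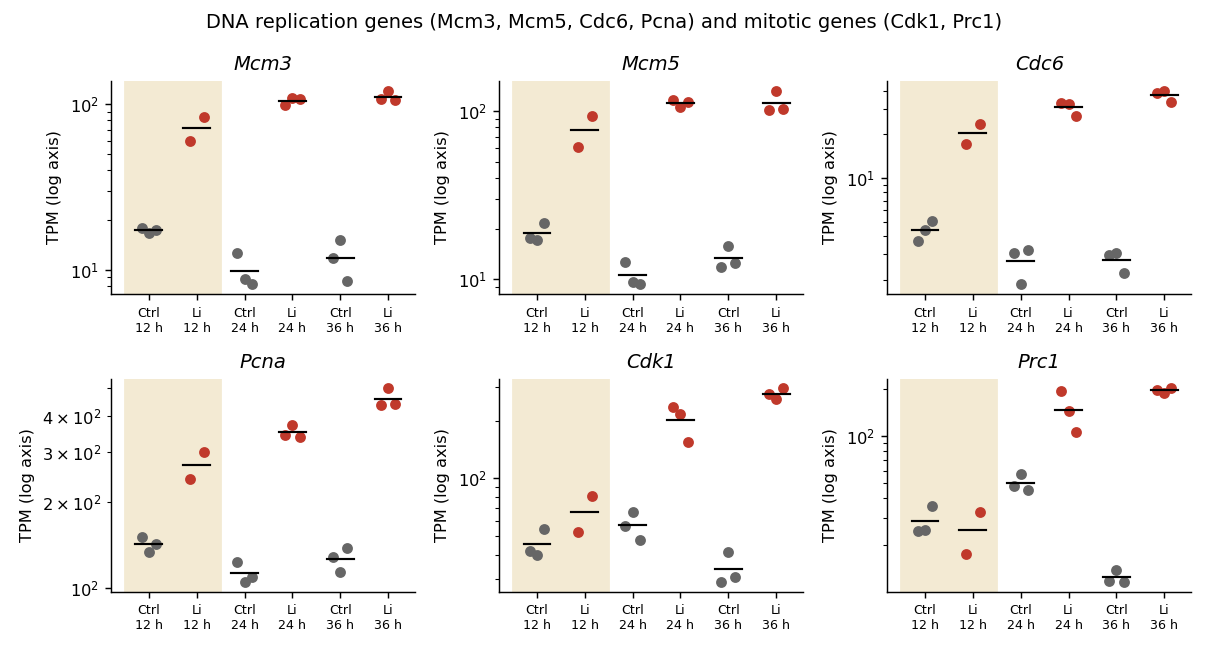
Levels in TPM (log scale) by library in the 6 CCD groups at 12, 24 and 36 h, controls in grey and lithium in red, with the group mean as a bar and 12 h shaded. Mcm3, Mcm5, Cdc6 and Pcna were above every control at 12 h, and in Cdk1 and Prc1 the wide separation is seen at 24 and 36 h, with Prc1 at 188.23 to 200.55 TPM in lithium libraries at 36 h.

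The later times, which share no library with 12 h, had both groups of genes raised. The median lithium effect on the G1/S list at 24, 36 and 72 h was 2.08, 2.07 and 1.07, and on the G2/M list 1.54, 3.22 and 1.53. All 45 and all 44 were called higher at 24 and 36 h. The difference of the effects was tested in the same limma fit. Across all genes, the effect at 12 h differed from that at 24 h in 1043 of 12605 genes (8.27%), and from that at 36 h in 1761 of 12764 (13.8%). Against 24 h, 37 of the 45 G1/S genes and 28 of the 44 G2/M genes were lower at 12 h. Against 36 h, 38 and 44 were lower. The controls of the mitotic list also moved with time, since 16 of its members were lower in controls at 36 h than at 12 h and none was higher, and Prc1 was at 45.38 to 57.35 TPM in controls at 24 h and at 11.66 to 14 at 36 h.

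**Figure D3:**
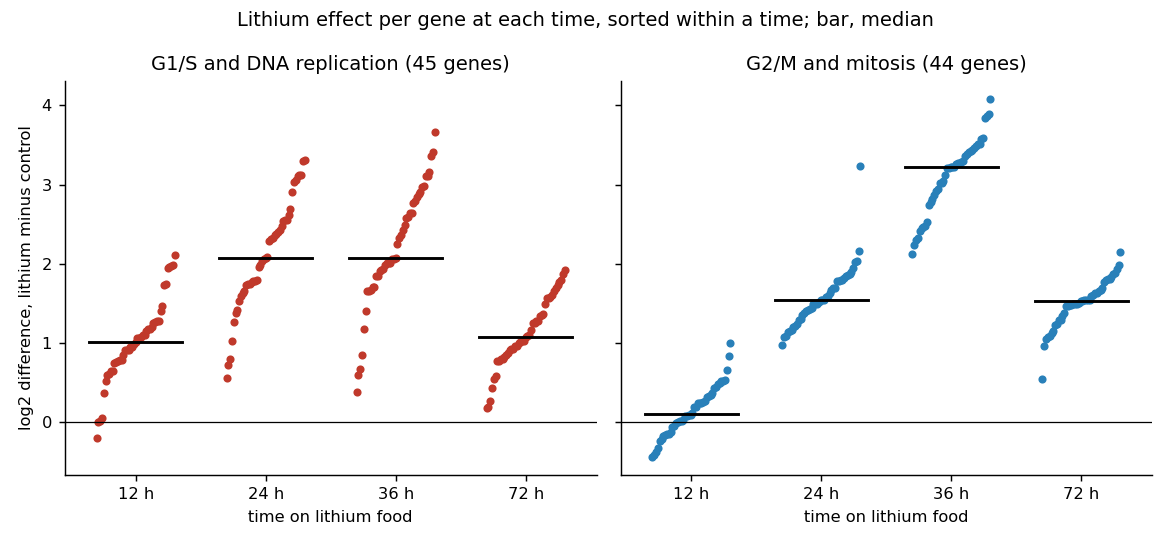
Log2 difference of lithium minus control (y axis) per gene at 12, 24, 36 and 72 h (x axis), sorted within each time, for the G1/S and DNA replication genes (left, red) and the G2/M and mitosis genes (right, blue), with the median as a bar. At 12 h the medians were 1.01 and 0.10, and at 36 h they were 2.07 and 3.22.

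Among p53 targets, which arrest, repair or kill damaged cells, 2 of 21 rose and none fell, a share of 9.52% that is near the 11.7% over all genes. They were Ddb2, a damage recognition gene, with 1.22, and Bax, a cell death gene, with 0.50, both above all 26 controls. An unadjusted p under 0.05 gave 4 higher and 1 lower.

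Among the transport genes, both water channels of the panel were lower. Aqp2, the vasopressin-regulated water channel, was at 6442.21, 7340.44 and 6096.66 TPM in controls and at 3540.19 and 3653.26 with lithium (-0.88, adjusted p = 3.23e-05), and Aqp3, the basolateral water channel, fell by 0.49. Scnn1b, which encodes the channel's beta subunit for sodium entry, fell by 0.50, while Scnn1a (-0.07) and Scnn1g (-0.27) were not called. Kcnj1, the potassium secretory channel, went from 1566, 1635 and 1916 to 517 and 957 TPM (-1.27). The lowest of its 9 early controls was at 891.8 TPM, so lithium library 2 overlapped them. Fxyd4, a subunit that tunes the sodium pump, rose by 0.84 at 12 h, to a mean of 1013 TPM. Its controls at 36 h were at a mean of 999.1 TPM, 0.82 above those at 12 h, and against controls of 12 and 36 h it was not called (0.43, adjusted p = 0.0769). Avpr2, the vasopressin receptor, gave 0.36 and was not called (adjusted p = 0.055). Aqp2 and Scnn1b lay below the 9 early controls in both lithium libraries but not below all 26. Aqp3 and Scnn1b were not called without lithium library 1 (-0.25, adjusted p = 0.232, and -0.39, adjusted p = 0.111), with all 8 CCD groups in the limma fit (adjusted p = 0.565 and 0.285) or with the 5 libraries alone (0.148 and 0.0777). Aqp3 was also not called under quantile normalization (-0.28) or against controls of 12, 24 and 36 h (-0.32). In bulk tissue, fewer cells of a type and less RNA per cell cannot be told apart.

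Of 22 tested principal cell genes, 4 fell and 2 rose (27.3% against 11.7% over all genes), and against controls of 12 and 36 h 5 were lower and none higher. Of 23 intercalated cell genes 3 fell and none rose (6 and 0 at an unadjusted p under 0.05), a share of 13% that is near that of all genes. The intercalated cell exchangers Slc4a1 and Slc26a4 differed by -0.06 and -0.00. The enzymes that lithium inhibits did not pass the test in either direction, with 0 of 11 called by limma and 1 lower at an unadjusted p under 0.05. Gsk3b, the kinase, was at 29.07, 24.33 and 40.42 TPM in controls and at 26.27 and 29.65 with lithium. The phosphatases Impa1 and Inpp1 gave -0.11 and -0.18. Against controls of 12 and 36 h 1 of the 11 was lower, Inpp1 (-0.57, adjusted p = 0.00449 in limma). Its control mean was 58.16 TPM at 12 h and 102.1 at 36 h.

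In the vasopressin and cAMP pathway 6 of 29 fell and 2 rose (27.6% called, against 11.7% over all genes). Against controls of 12 and 36 h 4 were lower and 1 higher. The falls were in Ptger3, a prostaglandin E2 receptor that lowers cAMP (-1.46), Pde3b (-1.21) and Pde4b (-0.63), which break cAMP down, Crem, a cAMP-responsive factor (-0.87), Avpr1a, another vasopressin receptor (-0.55), and Prkar1a, a regulatory subunit of protein kinase A (-0.28). Prkaca, the catalytic subunit, rose from 27.8, 32.7 and 28 to 41.3 and 41.4 TPM (0.48), above all 26 controls, and Crtc2, a coactivator of cAMP-responsive transcription, rose by 0.45. Avpr1a and Pde4b were not called against controls of 12 and 36 h (-0.24, adjusted p = 0.104, and -0.49, adjusted p = 0.0729), and Avpr1a differed by -0.63 between controls at 36 and 12 h. Crem and Ptger3 differed by -0.86 and -0.82 between those controls. The mean of Crem was 31.37 TPM in controls at 36 h and 31.12 with lithium at 12 h. Against controls of 12 and 36 h Crem and Ptger3 were called (-0.44 and -1.05).

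Id1 and Id3, targets of bone morphogenetic protein signalling that block differentiation factors, were among the largest rises, with 3.12 and 2.39. Id1 was at 52.77, 31.08 and 41.68 TPM in controls and at 217.87 and 607.78 with lithium, while the controls at 24 and 36 h were at 184.28 to 1070.86. Against controls of 12 and 36 h the differences were 1.07 for Id1 and 0.46 for Id3, and neither was called (adjusted p = 0.0846 and 0.592).

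Dusp2, a phosphatase that switches off ERK-type kinases, was among the largest falls. It was at 239.13, 191.77 and 214.32 TPM in controls and at 20.25 and 42.69 with lithium (-2.82, adjusted p = 9.62e-06). Both values were below all 26 controls, of which the lowest was 46.18. Dusp1, of the same family, rose by 1.40 and was the other of 2 called members among 17 feedback genes of MAP kinases, a share of 11.8% that is near that of all genes. Dusp1 was at 90.8 and 152.03 TPM with lithium, and the 9 early controls reached 91.7, so library 1 overlapped them. Its controls at 36 h were 0.93 above those at 12 h, and against both together Dusp1 was called (0.94).

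Other large falls were Apcdd1, a Wnt inhibitor (-2.54), Tfrc, the transferrin receptor (-2.47), Maob, monoamine oxidase B (-2.43), Aldh2, mitochondrial aldehyde dehydrogenase (-1.83), Pmepa1, a brake on TGF-beta signalling (-1.73), and Lpin2, a phosphatidate phosphatase (-1.69). Aldh2 went from 70.09, 69.53 and 88.66 to 15.12 and 27.96 TPM, and Pmepa1 from 25.77, 25.18 and 22.38 to 11.15 and 3.85. Both lay below all 26 controls. Tfrc, Apcdd1, Maob and Lpin2 overlapped the 26 controls, and of these Maob and Lpin2 lay below the 9 early controls. Tfrc controls at 12 h were at 57.8 to 83.48 TPM, and those at 24 h had a mean of 15.8. Further falls were Cnpy1, Pgam2, Arfgef3, Znf768 and Ifitm1, with Coro1a and Laptm5, given with the leukocyte genes. Each of these overlapped the 26 controls too. Pgam2 had a mean of 27.9 TPM with lithium at 12 h and 19.83 in controls at 36 h. For Znf768 the lithium mean was 6.615 TPM and that of controls at 24 h was 6.347.

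**Figure D4:**
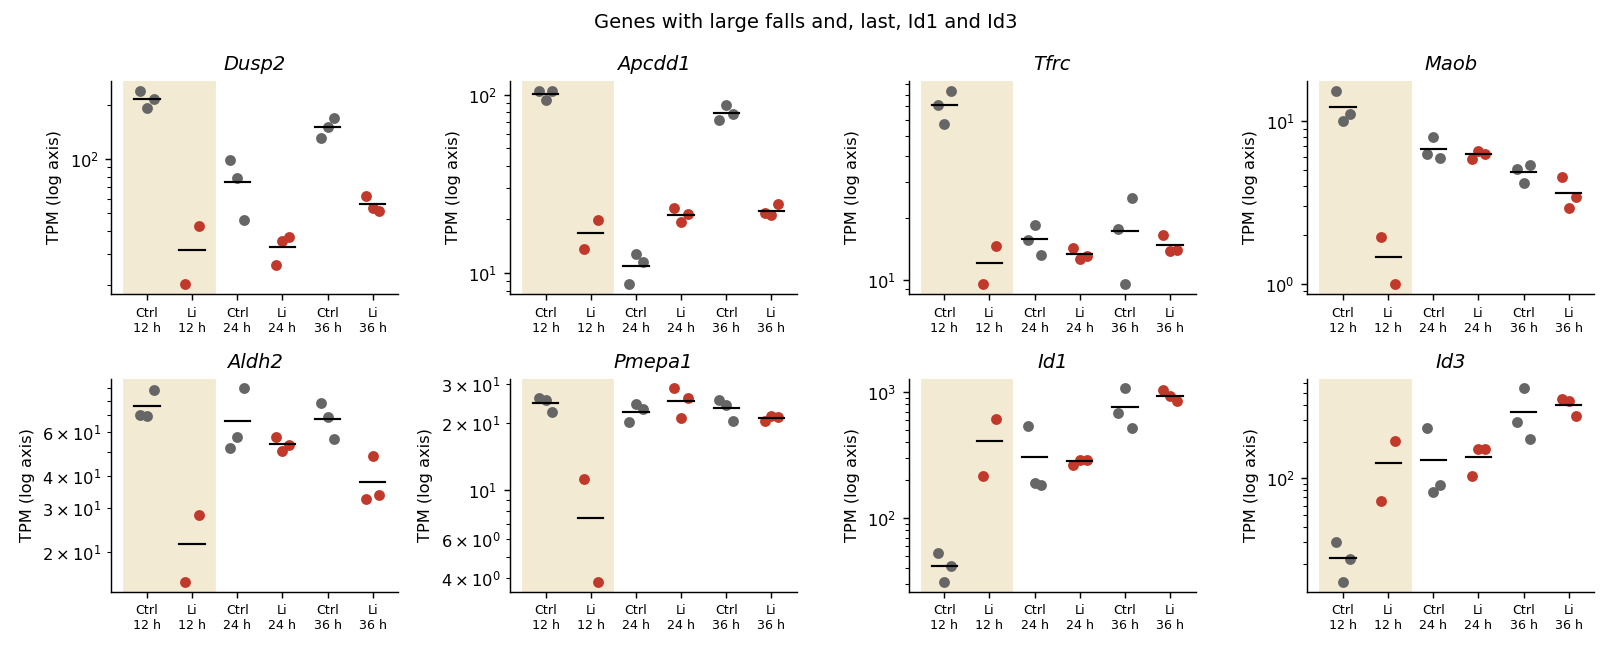
Levels in TPM (log scale) by library in the 6 CCD groups at 12, 24 and 36 h, controls in grey and lithium in red, with the group mean as a bar and 12 h shaded. Dusp2 and Aldh2 were below every control at 12 h. Dusp2, Apcdd1, Tfrc, Maob, Id1 and Id3 also moved between the control groups. Control means of Dusp2 were 215.1, 74.41 and 149.7 TPM at 12, 24 and 36 h, and Id1 went from 31.08 to 52.77 TPM at 12 h to 516.32 to 1070.86 at 36 h.

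Among the rises outside replication, Adm2, a peptide of the adrenomedullin family, went from 8.03, 8.47 and 6.53 to 44.18 and 56.52 TPM (2.56), above all 26 controls. Lcn2, the iron-binding injury protein, went from 1.17, 1.26 and 0.37 to 9.74 and 11.2 TPM (2.60), just above the highest control of 9.51. The rises also held Cyr61 (from 0.57, 1.32 and 1.17 to 5.38 and 18.82 TPM), Tinagl1 (2.13) and Popdc3 (2.06), and each overlapped the 26 controls, which reached 26.89, 186.14 and 14.53 TPM. Slc39a1, Repin1 and H3f3c, with 2.67, 3.04 and 2.32, overlapped them too, with controls up to 51.39, 25.3 and 40.74 TPM. Their lithium effects did not hold at each later time. At 24 and 36 h they were 2.93 and -0.09 for Slc39a1, -0.35 and 2.39 for Repin1, and -2.14 and 0.04 for H3f3c. Ccl2, a chemokine for monocytes, was at 0.36, 0 and 0.06 TPM in controls and at 1.55 and 13.8 with lithium, and its rise of 2.44 was not called without library 2 (1.18, adjusted p = 0.28). It also missed the threshold with a pseudocount of 0.1 (adjusted p = 0.0617 in limma), all 8 CCD groups (0.0883), the 5 libraries alone (0.0991) and without control library 3 (0.05).

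Tubular injury genes rose in 9 of 24 and fell in 1 (41.7% called, against 11.7% over all genes). Krt18 and Krt8 are the paired keratins of simple epithelia. Krt18 went from 337.58, 429.81 and 388.72 to 721.71 and 943.79 TPM (1.10) and Krt8 rose by 0.78, both above all 26 controls. Lgals3, Anxa2, S100a10, Tnfrsf12a, Cd44 and Hbegf rose by 0.44 to 0.98. Spp1, osteopontin, fell by 0.92, and the controls at 36 h minus those at 12 h gave -1.56. Against controls of 12 and 36 h Spp1 was not called (-0.14). Against controls of 12 and 36 h 9 were higher and none was lower.

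Among 27 genes of NF-kB signalling and inflammation, 8 rose and 1 fell (33.3% called, against 11.7% over all genes). The rises included Nfkbie, an inhibitor of NF-kB, with 1.29, and Cxcl10, an interferon-induced chemokine, with 1.76. Of 20 interferon-stimulated genes 7 rose (35%, against 7.96% over all genes) and none fell (11 and 0 at an unadjusted p under 0.05 in limma). The rises were led by Ifit2 (1.77), Psmb8 (1.52) and Isg15 (1.48). Both lists also rose between untreated groups, with 8 and 13 members higher in controls at 36 h than at 12 h. No interferon gene lay above the 9 early controls in both lithium libraries.

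Of 22 citrate cycle genes, 16 fell (72.7%, against 3.78% over all genes) and none rose, with a median of -0.35. At an unadjusted p under 0.05 limma gave 21 lower and none higher. Idh2, isocitrate dehydrogenase, went from 1519, 1446 and 1448 to 1043 and 966 TPM (-0.55), and Cs, citrate synthase, fell by 0.50. The untreated controls moved in the same way, with 20 of the 22 lower at 36 h than at 12 h, and 9 were lower against controls of 12 and 36 h. In ketone use, Oxct1 fell from 747.64, 655.63 and 790.19 to 315.67 and 325.08 TPM (-1.18) and Bdh1 by 0.71. The controls at 36 h minus those at 12 h gave -0.72 and -0.55. Against controls of 12 and 36 h both genes were called (-0.82 and -0.44). Oxct1 and Bdh1 were 2 of 8 falls and 4 rises among 24 genes of fatty acid oxidation (50% called, against 11.7% over all genes).

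Sterol and fatty acid synthesis genes, which the SREBP factors drive, fell in 11 of 28 (39.3%, against 3.78% over all genes) and rose in none. Their median was -0.45, with 17 lower and none higher at an unadjusted p under 0.05 in limma. Insig1, which holds SREBP back when sterols are plentiful, went from 66.8, 68.9 and 68.3 to 23.1 and 33.3 TPM (-1.26). The synthesis enzymes Hsd17b7, Idi1, Hmgcs1 and Cyp51 fell by 1.07, 0.82, 0.60 and 0.59. Between untreated controls 3 members were lower at 36 h than at 12 h and none was higher, against 463 lower of 11795 over all genes. Against controls of 12 and 36 h 12 were lower. Control means also fell by 24 h, from 209.9 to 148.6 TPM for Fdps and from 68.03 to 48.24 for Insig1. The lithium means at 12 h were 147.7 and 28.2 TPM. Both genes were called against controls of 12, 24 and 36 h (-0.23 and -1.09). Both lithium libraries lay below the 9 early controls in 3 members and below all 26 in none.

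Chaperones of the endoplasmic reticulum fell in 8 of 27 (29.6%, against 3.78% over all genes) and rose in none, led by Hspa5, the chaperone BiP (-1.05). At an unadjusted p under 0.05, 12 were lower and none higher. Between untreated controls 11 were lower at 36 h, and 4 were lower against controls of 12 and 36 h. Glycolysis genes fell in 8 of 19 and rose in 1 (47.4% called, against 11.7% over all genes). The rise was Pdk4 (1.18), which shuts pyruvate out of the citrate cycle. Against controls of 12 and 36 h, 6 were lower and 1 higher. Between untreated controls 7 were lower and 1 higher at 36 h than at 12 h. Ctsd, a lysosomal protease, went from 9303, 9440 and 9316 to 4159 and 4458 TPM (-1.12), and the controls at 36 h minus those at 12 h gave -1.10.

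**Figure D5:**
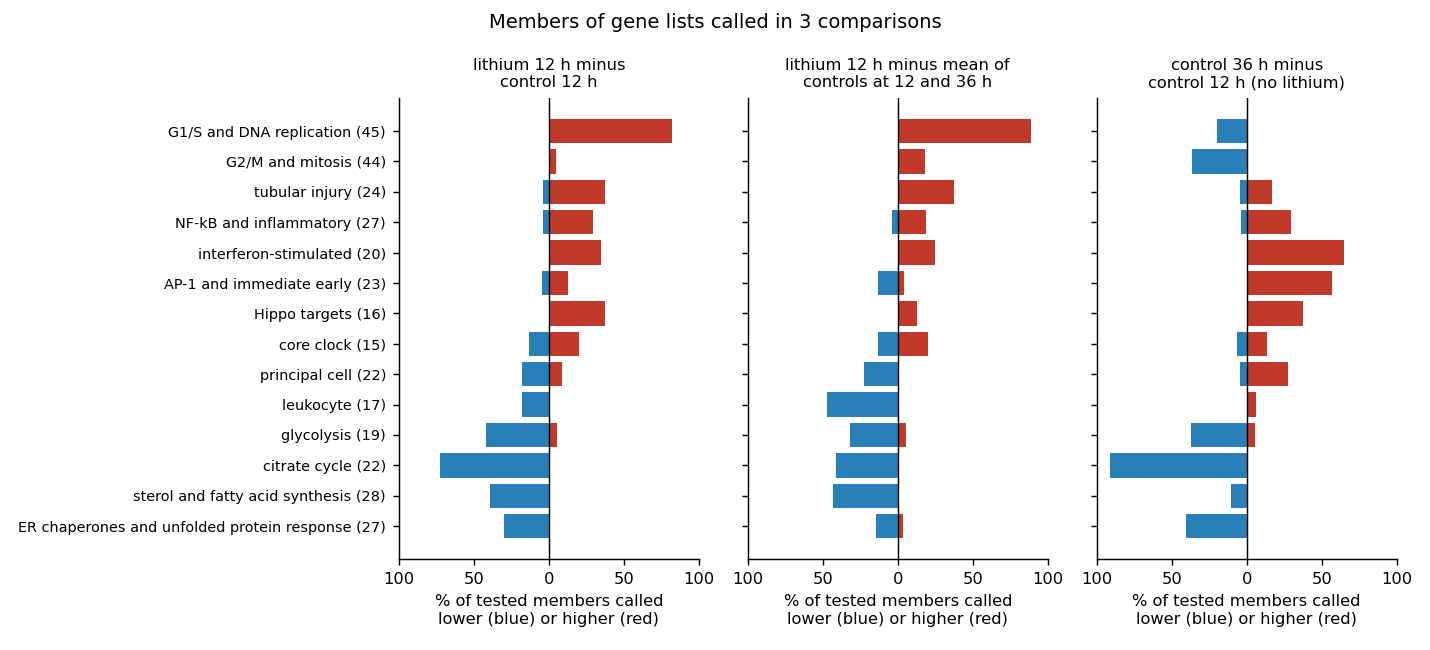
Share of tested members called higher (red, to the right) or lower (blue, to the left) in 14 gene lists, with the number tested in brackets, for lithium against control at 12 h, lithium against controls of 12 and 36 h, and control at 36 h against control at 12 h. The G1/S list was red in the first 2 panels (37 and 40 of 45) and blue in the third (9 lower), while the citrate cycle list was blue in all 3 (16, 9 and 20 of 22).

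Of 15 core clock genes, 3 rose and 2 fell (33.3% called, against 11.7% over all genes), with the same counts against controls of 12 and 36 h. Nr1d1 and Nr1d2, the REV-ERB repressors, went from 23.8, 19 and 18.6 to 9.32 and 8.64 TPM (-1.10) and from 29.1, 24.7 and 31.1 to 12.5 and 10.9 (-1.20), below all 26 controls. The period genes Per2 and Per1, which repress the clock's activators, rose by 1.06 and 0.86. The time of day of each dissection was not given in the sources used here, so its part in these differences was not tested.

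Steroid-responsive genes divided. Fkbp5, Tsc22d3, Per1, Zbtb16, Mt2A, Usp2 and Dusp1 rose by 0.62 to 1.59. Sgk1, the kinase that keeps the sodium channel at the membrane, fell from 771, 785 and 696 to 336 and 356 TPM (-1.11), with Klf9 (-1.08). Sgk1 had a mean of 282.1 TPM in controls at 24 h. It was called in limma against controls of 12 and 36 h (-0.82, adjusted p = 0.00381) but not against those of 12, 24 and 36 h (-0.43, adjusted p = 0.0843). In this list 7 of 21 rose and 2 fell (42.9% called, against 11.7% over all genes). Against controls of 12 and 36 h 6 were higher, without Mt2A (0.41), and 4 lower. Both lithium libraries of Tsc22d3, Fkbp5 and Per1 lay above the 9 early controls.

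Of 17 tested leukocyte genes, 3 were called lower (17.6%, against 3.78% over all genes) and none higher, with a median of -0.94. At an unadjusted p under 0.05 limma gave 8 lower and none higher, and 8 were called lower against controls of 12 and 36 h. Coro1a, an actin regulator of leukocytes, was at 8.74, 7.23 and 6.92 TPM in controls and at 0.93 and 0.75 with lithium, and Laptm5 at 7.34, 4.61 and 7.21 and at 0.53 and 0.88. Ptprc, the common leukocyte antigen, was at 0.59 to 1.71 and at 0.02 and 0.09 TPM. Replication genes rose in the libraries where these were lower, and the part of the leukocyte genes in the other results was not tested.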

How the data were processed

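RNA was sequenced from microdissected CCD as amplified cDNA, without strand. The values are TPM as deposited by the authors in 1 table of 32754 genes and 75 libraries, and the submitters' processing notes name STAR 2.5.2b, RSEM 1.2.31 and the build Rnor_6.0. TPM keeps no depth, so the reads per library are unknown. Columns were matched to samples by the description in the labels. Genes with at least 1 TPM in at least 2 of the 5 libraries were tested on log2(TPM + 1) with limma 3.58.1 (R 4.3.3; moderated, with a mean-variance trend) in 1 fit of the 6 CCD groups at 12, 24 and 36 h, with Benjamini-Hochberg adjustment over all tested genes. The fit was tested on simulated data, where 88 of 100 genes changed by a log2 of 1 and 98 of 100 changed by 2 were recovered, with 12 unchanged genes called. The simulated libraries varied independently around 1 mean per gene, and the changed genes had a mean of at least 5 TPM. They held no shifts between groups, so the simulation does not measure false calls from differences such as those between untreated groups.

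Genes were named by a rule: a panel of 12 genes, the 15 largest called rises and 15 falls (group mean, in whichever group was higher, 5 TPM or more), up to 4 members of each list by p, and 8 genes per direction of each time difference. Other members are named to complete a list, and some genes that the rule names are not reported here. The comparison, the gene lists and the rule were chosen with earlier results of these data known. Rat promoters came from RefSeq (GRCr8), matched by symbol, and none of that build's coordinates was set beside the expression build. Dscc1 and Cdc6 had no promoter entry. Alternatives covered scaling, filters, pseudocounts, the groups fitted, the controls used, a replicate block and each library left out.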

Additional observations from a re-analysis of the deposited data

Results flagged for a closer look

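The lithium effect at 12 h differed from the effect at a later time in the gene and time pairs given here, each past an adjusted p of 0.05 in limma's test of the difference, with Benjamini-Hochberg adjustment. Values below are log2 effects at 12 h minus the later time.

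Against 24 h, Clu, a secreted chaperone of injured tubules, gave -6.11, with lithium means of 77.59 TPM at 12 h and 6620 later. Timp1, an inhibitor of matrix proteases, gave -5.35 and Lcn2 -3.26. Apcdd1 gave -3.44, and its controls were at a mean of 101.1 TPM at 12 h and 11.03 at 24 h. The other negative differences were Znf768 with -3.42, Anapc7 with -3.32, Pgam2 with -2.96 and RT1-CE1 with -2.95. The positive differences were H3f3c with 4.46, the interferon-induced Mx2 with 4.14, Crb2 with 4.08, the interferon-induced Oas1f with 3.65, Repin1 with 3.39, Rd3l with 3.31 and Id1 with 3.04. Crb2 was below the filter at 12 h, with means of 0.04 TPM in controls and 0.02 with lithium. Its difference came from 24 h, with means of 18.34 TPM in controls and 0.1133 with lithium. On means of sets, Clu, Timp1 and Apcdd1 were called, and the others given here were not.

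Against 36 h, 5 genes of dividing cells gave large negative differences. They were Prc1 with -4.07, Nusap1 with -3.95, Kif22 with -3.91, Ube2c, which tags mitotic proteins for destruction, with -3.90, and Sapcd2 with -4.22. Nusap1, a spindle protein, was at 10.3 TPM on average in the 12 h lithium libraries and 78.34 in those of 36 h, and these 5 were called on means of sets as well. Ndufs5, a subunit of complex I, gave -4.94, Iqgap3 -4.25 and Crb2 -4.20. Ndufs5 had control and lithium means of 1.857 and 3.635 TPM at 12 h, and of 3.59 and 201.5 at 36 h. For Crb2 these means were 0.04 and 0.02 TPM at 12 h, and 0.07333 and 18.5 at 36 h. The positive differences were Ly6g6e with 4.24, RT1-CE16 with 3.68, Alox15b with 3.41, Cyp4b1 with 3.24, Slc39a1 with 2.76, Id1 with 2.75, Socs3 with 2.73 and Dnase1 with 2.66. In RT1-CE16 the control mean was 9.453 TPM at 12 h and 195.6 at 36 h, and the lithium means were 13.42 and 20.26.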

How the results depend on the processing

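The count of genes called at 12 h stayed within 1.5 times of 1411 under both other pseudocounts, no filter, a mean of at least 5 TPM, no trend and other controls. Fitting all 8 CCD groups gave 280 (198 higher, 82 lower), and the 5 libraries alone 389 (252 higher, 137 lower). Median-of-ratios scaling called 703 lower and quantile normalization 768. Means of sets, chosen after seeing the data, called 3 (0 higher, 3 lower), and 0 genes of the G1/S and of the G2/M list. The 2 calls of the G2/M list became 1 with all 8 groups or a mean of at least 5 TPM, 0 with the 5 libraries alone, 8 with controls of 12 and 36 h, and 4 with controls of 12, 24 and 36 h.

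The difference between 12 and 24 h had 125 calls (39 higher, 86 lower) with all 8 groups and 7 (1 and 6) on means of sets. The difference between 12 and 36 h had 459 (104 and 355) and 45 (3 and 42), with 971 higher under quantile normalization. Controls at 36 h against 12 h had 194 (133 and 61) and 0 (0 and 0), with 743 lower under median-of-ratios scaling and 794 under quantile normalization.

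Leaving out each library in turn gave 1018 to 1316 calls at 12 h, with 500 to 1025 higher and 291 to 518 lower. The lowest number higher came without lithium library 2 and the lowest number lower without library 1. The G1/S list had 31 to 38 calls and the G2/M list 1 to 4. The difference from 24 h had 640 (without lithium library 1) to 1566 (without library 2), with 266 to 329 higher and 356 to 1237 lower, and that from 36 h 1264 to 2169, with 466 to 568 higher and 696 (without lithium library 1) to 1685 lower. Controls at 36 h against 12 h had 807 (without control library 1) to 994, with 493 to 692 higher and 279 (without control library 3) to 383 lower.

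With the replicate number as a block, 1203 genes were called at 12 h, 35 of them on the G1/S list. The numbers did not pair the libraries: deviations from group means correlated with a median r of -0.0166 in 40 same-numbered pairs and -0.00149 in 80 others. Of the named genes, RT1-CE16 turned to -1.65 with controls of 12 and 36 h and -2.70 with controls of 12, 24 and 36 h, and RT1-CE1 to 0.84 with the latter. The cause of these changes was not tested. TPM gives no depth, so counting error is unknown, and genes near 1 TPM are the least certain.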

Other observations

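Over all genes 11.7% were called. Of 12 tested genes of the mitochondrial genome none was called in limma, with 2 lower at an unadjusted p under 0.05. Of 30 ribosome biogenesis genes 2 rose and none fell (6 and 0 at an unadjusted p under 0.05), with a median log2 difference of 0.15 at 12 h and 0.60 at 36 h. Of 20 heat shock genes 1 rose and 1 fell, and of 18 hypoxia-inducible genes 1 rose and 2 fell.

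Of 16 Hippo pathway targets, 6 rose (37.5%, against 7.96% over all genes) and none fell (7 and 1 at an unadjusted p under 0.05 in limma). Against controls of 12 and 36 h 2 were higher, and 6 were higher in controls at 36 h than at 12 h. Among 23 immediate early genes of the AP-1 group, 3 rose and 1 fell at 12 h with lithium (17.4% called). Between untreated controls 13 were higher at 36 h than at 12 h.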
